A study of Mus musculus with 2 samples.

Results

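Kit, Sohlh1, Sohlh2, Dmrt1 and Dmrtb1 were examined as a group of 5 genes of spermatogonial differentiation, taken by gene symbol from the 39695 gene entries of an RNA-seq study of P9 mouse testes. The data comprised 1 library from control testes and 1 from Bcas2F/-;Vasa-Cre testes, both of 9-day-old males, with whole testes as the source of RNA. In both genotypes 1 allele of Bcas2 was floxed and the other deleted (F/-), and Bcas2F/-;Vasa-Cre males had in addition the transgene Vasa-Cre, whose recombinase is active in germ cells. The strain is C57BL/6 in the labels and a mixed background of C57BL/6 and another inbred strain in the methods, and the number of mice behind each library is not given in the sources used here. The comparison asked whether genes that mark and drive the differentiation of spermatogonia differed when BCAS2, a component of the spliceosome-associated Prp19 complex, was removed from germ cells.

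In the postnatal testis, undifferentiated spermatogonia either renew themselves or become differentiating spermatogonia, which then enter meiosis. KIT is the receptor tyrosine kinase of differentiating spermatogonia, and its ligand, stem cell factor, encoded by Kitl, is made by Sertoli cells. SOHLH1 and SOHLH2 are basic helix-loop-helix transcription factors of the germ line that are needed for this differentiation and for Kit expression, and proteins of their class bind the E-box. DMRT1 and DMRTB1, also called DMRT6, carry the DM domain, a zinc-binding DNA-binding domain. DMRT1 is made in spermatogonia and in Sertoli cells and restrains entry into meiosis, and DMRTB1 acts in late spermatogonia at the change from the mitotic to the meiotic programme.

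Values are RPKM, reads divided by the length of the gene and the size of the library, and a level is therefore already per length. All 5 genes were well above the minimum mean RPKM of 1 that 14831 genes reached. The control library held 19918750 counted reads and the Bcas2F/-;Vasa-Cre library 19331687, totals recovered from the deposited values. With 1 library per genotype there is no replicate check of any difference in these data, and p-values are not given. By real-time RT-PCR of P9 testes in replicate samples, the authors reported similar mRNA levels in both genotypes for Kit, Sohlh1, Sohlh2, Ddx4, Dazl and Stra8. Further spermatogonial genes, Nanos2 among them, were also reported as similar. Genes of meiotic prophase, Smc1b among them, were reported as significantly lower in Bcas2F/-;Vasa-Cre testes. Dmrt1 and Dmrtb1 were not among the genes of that measurement. Intervals are 95% intervals, cover counting error only and leave out the spread between animals and between libraries. Bcas2 itself was at 39.5 RPKM in control and 25.7 in Bcas2F/-;Vasa-Cre testes, 1410 and 888 reads. Its log2 ratio of RPKM + 1 was −0.60. Whole testes include somatic cells, in which Vasa-Cre is not active, and the share of the remaining Bcas2 RNA that came from germ cells was not tested.

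Of the 5 genes, 4 were lower in Bcas2F/-;Vasa-Cre testes and 1, Sohlh2, was higher, except that Dmrt1 changed sign, to a log2 ratio of 0.041, when the median of the pan-germ cell genes was set to 0. Dmrtb1 was 43.4% lower, Sohlh1 27.8%, Kit 23.3% and Dmrt1 20.2% lower, and Sohlh2 was 15.8% higher. Only Dmrtb1 was more than 1.5-fold lower on the scale of RPKM + 1, and 0 of the 5 were more than 1.5-fold higher. Among the 14831 genes, the share more than 1.5-fold lower was 1.69%, and 1.57% were higher by as much. Above a mean RPKM of 5, which all 5 genes exceeded, these shares were 0.975% and 0.431%. The median log2 ratio of the 5 genes was −0.37, beside 0.015 for all genes tested. In bulk tissue, fewer cells of a type and less RNA per cell cannot be told apart. From staining of testes older than those sequenced, the authors reported numbers of undifferentiated and of differentiating spermatogonia without a significant difference. Spermatocytes of meiotic prophase were reported as almost absent from Bcas2F/-;Vasa-Cre testes at such ages.

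**Figure D1:**
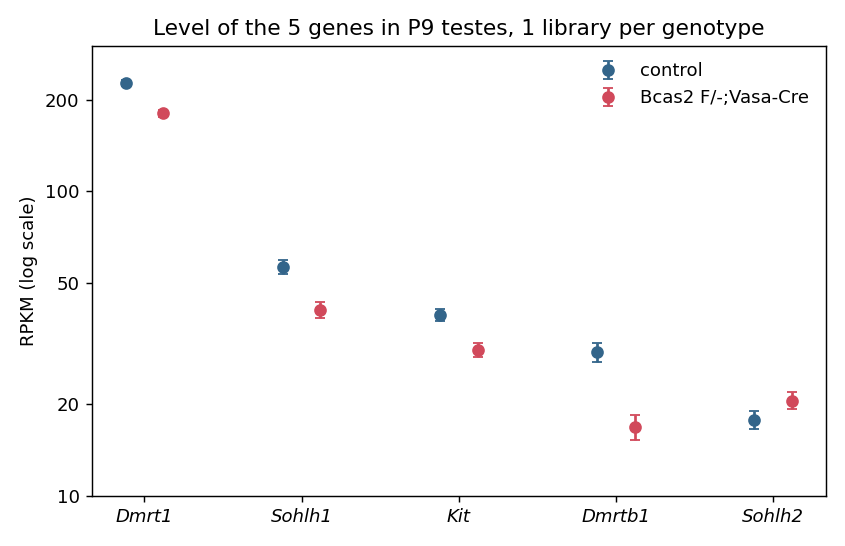
RPKM of the 5 genes on a log axis in the control library (blue) and the Bcas2F/-;Vasa-Cre library (red), 1 library each. Bars are exact 95% Poisson intervals of the reads, and Dmrtb1 and Sohlh2 exchange their order between the libraries, with 29.6 and 17.7 RPKM in control and 16.8 and 20.5 in Bcas2F/-;Vasa-Cre testes.

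The windows upstream of 4 of the genes are shown because their protein products include factors that bind such sequence. Whether the windows bear on the direction of the differences was not tested. They were taken from RefSeq promoters on GRCm38.p6 (Dmrt1 is not shown) and end at the last base before the gene start in GENCODE M21. Kit and Dmrtb1 had 2 promoter entries each, and the most upstream was used. Each runs 5′ to 3′ on the strand of the gene, and capitals mark each match to the E-box CANNTG, read on both strands because the motif is its own reverse complement. The window of Sohlh1 is chr2:25847249-25847498 on the minus strand and that of Sohlh2 is chr3:55181794-55182027 on the plus strand. The window of Dmrtb1 is chr4:107684231-107684480 on the minus strand and that of Kit is chr5:75574737-75574915 on the plus strand.
Sohlh1: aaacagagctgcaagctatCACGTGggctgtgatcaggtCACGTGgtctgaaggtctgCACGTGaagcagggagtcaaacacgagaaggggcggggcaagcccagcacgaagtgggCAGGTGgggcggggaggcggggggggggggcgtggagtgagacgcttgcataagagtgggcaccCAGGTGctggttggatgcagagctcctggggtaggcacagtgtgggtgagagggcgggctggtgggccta
Sohlh2: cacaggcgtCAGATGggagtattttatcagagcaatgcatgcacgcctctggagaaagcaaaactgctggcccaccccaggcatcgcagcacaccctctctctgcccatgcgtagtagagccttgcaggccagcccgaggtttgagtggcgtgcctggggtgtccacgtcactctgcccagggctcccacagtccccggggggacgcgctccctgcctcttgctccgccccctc
Dmrtb1: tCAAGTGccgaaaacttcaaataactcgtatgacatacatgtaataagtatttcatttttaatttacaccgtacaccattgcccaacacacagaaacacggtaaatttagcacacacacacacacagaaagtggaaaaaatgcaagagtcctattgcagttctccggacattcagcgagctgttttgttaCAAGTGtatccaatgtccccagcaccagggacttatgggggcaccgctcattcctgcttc
Kit: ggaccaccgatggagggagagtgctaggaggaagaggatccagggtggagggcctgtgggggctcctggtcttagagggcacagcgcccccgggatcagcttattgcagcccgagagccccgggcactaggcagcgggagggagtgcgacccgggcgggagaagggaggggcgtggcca

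The window of Sohlh1 held 5 E-boxes in 250 bases, and 1.15% of the 32851 RefSeq promoter windows of that length held at least 5. Of these E-boxes, 3 had the letters CACGTG and began 231, 211 and 192 bases upstream of the gene start. At least 3 matches to CACGTG were present in 20 promoters, or 0.0609%. The other 2 had the letters CAGGTG, 134 and 70 bases upstream. The window of Dmrtb1 held 2 E-boxes, both CAAGTG, 249 and 60 bases upstream, and 31.8% of promoters held at least 2. The window of Sohlh2, 234 bases long, held 1 E-box, CAGATG, 225 bases upstream, and 64.0% of promoters held at least 1 in that length. In the window of Kit, 179 bases long, these letters were absent, whereas 55.3% of promoters held them in that length. The core of the DM-domain motif was searched loosely, as ACANTGT with any base at its centre, a pattern that is also its own reverse complement. This pattern had 1 match, ACAGTGT 34 bases upstream of Sohlh1, which overlaps none of the E-boxes, and 6.47% of promoters held the pattern. A pattern with fewer bases allowed at the centre was not searched. ACANTGT was absent from the windows of Sohlh2, Dmrtb1 and Kit. A match describes letters only, and the libraries hold no measurement of binding.

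Kit, the receptor (ENSMUSG00000005672), occupies bases 75574916 to 75656722 of chromosome 5 on the plus strand of GRCm38, and its longest transcript has 21 exons. It was at 39.2 RPKM in control and 30.1 in Bcas2F/-;Vasa-Cre testes, from 1653 and 1231 reads. The exact Poisson intervals of the levels, 37.4 to 41.2 and 28.4 to 31.8 RPKM, did not overlap. The log2 ratio of RPKM + 1 was −0.37, and without the pseudocount the 95% Clopper-Pearson interval was −0.49 to −0.27. Of the 14831 genes tested, 734 had a lower log2 ratio. The reads correspond to a gene length of 2115 bases, which differs from the mean transcript length of 2371 bases in GENCODE M21, so the level of Kit relative to other genes depends on the authors' annotation, and its ratio between libraries does not. The gene value sums all transcripts, and the full-length receptor and the truncated tr-kit form of later germ cells are not separated.

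Kitl, the ligand, differed in the opposite direction to the receptor. It was at 167 RPKM in control and 200.1 in Bcas2F/-;Vasa-Cre testes, and its log2 ratio was 0.26, with 0.22 to 0.30 as the interval without the pseudocount. The quotient of the RPKM of Kit over that of Kitl, which does not depend on how the libraries are scaled, went from 0.235 to 0.150, a log2 change of −0.64 with a 95% interval of −0.76 to −0.53. Of the 30 genes of KIT ligand and signalling, all with a mean RPKM of 1 or more, 0 were past 1.5-fold in either direction. Their median log2 ratio was 0.038, and they ranged from −0.26 for Ptpn6, a phosphatase that dampens receptor signalling, to 0.29 for Sos1, an exchange factor for Ras. Akt1, the kinase downstream of PI3K with the highest level in the list, was at 222 and 218 RPKM. Most of these signalling genes are also used by other cells of the testis.

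KIT is also made by mast cells and by Leydig cells, and their markers were therefore read beside Kit. The 9 mast cell genes other than Kit summed to 26.8 RPKM in control and 26.7 in Bcas2F/-;Vasa-Cre testes. Of these, 6 reached a mean RPKM of 1, with 0 past 1.5-fold and log2 ratios from −0.44 for Gata2 to 0.31 for the mast cell protease gene Cpa3. Hdc, histidine decarboxylase, had the highest level of the list at 12.8 and 13.2 RPKM, and Fcer1a, a chain of the IgE receptor, was listed at 0 in both libraries. The Leydig cell genes had a median log2 ratio of 0.028 over 9 genes, with 1 past 1.5-fold lower and 1 higher. Cyp17a1, a steroidogenic enzyme, was at 94.8 and 152 RPKM, a log2 ratio of 0.68, and Cyp21a1 was at 3.25 and 1.82 RPKM, a log2 ratio of −0.59. Hsd3b1, the highest of that list, had a log2 ratio of −0.17. The part of either cell type in the value of Kit was not tested.

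Sohlh1 and Sohlh2 differed in opposite directions. Sohlh1 occupies bases 25842995 to 25847248 of chromosome 2 on the minus strand (ENSMUSG00000059625) and has 1 annotated transcript of 8 exons. It was at 56.3 RPKM in control and 40.7 in Bcas2F/-;Vasa-Cre testes, from 1445 and 1013 reads, with Poisson intervals of 53.4 to 59.3 and 38.2 to 43.2 RPKM. The level was lower in Bcas2F/-;Vasa-Cre testes and the intervals lay apart. Its log2 ratio was −0.46, with an interval of −0.59 to −0.35 without the pseudocount, and 462 genes had a lower one.

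Sohlh2 occupies bases 55182028 to 55209957 of chromosome 3 on the plus strand (ENSMUSG00000027794) and has 1 annotated transcript of 11 exons. It was at 17.7 RPKM in control and 20.5 in Bcas2F/-;Vasa-Cre testes, from 834 and 937 reads, with Poisson intervals of 16.5 to 19.0 and 19.2 to 21.9 RPKM. These intervals lay just apart. The log2 ratio was 0.20, with an interval of 0.075 to 0.35 without the pseudocount, and 2172 of the genes tested had a higher one. For both Sohlh genes the deposited values gave whole reads with the annotated transcript length.

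The opposite directions were larger than counting error when the Sohlh genes were set against each other. The quotient of the RPKM of Sohlh1 over that of Sohlh2 was 3.18 in control and 1.98 in Bcas2F/-;Vasa-Cre testes, a log2 change of −0.68 with a 95% interval of −0.86 to −0.50. Kit over Sohlh1 went from 0.697 to 0.741, a log2 change of 0.087 with an interval of −0.070 to 0.24, so a difference between Kit and Sohlh1 was not detectable at this depth. Kit over Sohlh2 went from 2.21 to 1.47, a log2 change of −0.59 with an interval of −0.76 to −0.42. Sohlh2 thus stood apart from both the gene of its partner and that of the receptor.

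Dmrt1 had the highest level of the 5 genes in both libraries. It occupies bases 25505618 to 25604329 of chromosome 19 on the plus strand (ENSMUSG00000024837), with 5 exons in its longest transcript. It was at 226 RPKM in control and 180.4 in Bcas2F/-;Vasa-Cre testes, from 7254 and 5618 reads, with Poisson intervals of 221 to 231 and 176 to 185 RPKM. Its log2 ratio was −0.32, with an interval of −0.38 to −0.28 without the pseudocount, and 954 genes had a lower one. Since Sertoli cells also make DMRT1, the value joins both sources, and their shares in it were not tested.

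Dmrtb1 showed the largest difference of the 5 genes. It occupies bases 107676290 to 107684230 of chromosome 4 on the minus strand (ENSMUSG00000028610), with 4 exons in its longest transcript. It was at 29.6 RPKM in control and 16.8 in Bcas2F/-;Vasa-Cre testes, from 765 and 420 reads, with Poisson intervals of 27.6 to 31.8 and 15.2 to 18.4 RPKM. The level in Bcas2F/-;Vasa-Cre testes was 0.566 times that in control, with a 95% interval of 0.501 to 0.638. Its log2 ratio was −0.79, with an interval of −0.997 to −0.65 without the pseudocount, and −0.42, inside 1.5-fold, when the median of the pan-germ cell genes was set to 0. Of the 14831 genes tested, 104 had a lower log2 ratio, and 37 of these had a mean RPKM of 5 or more. Bcas2, the targeted gene, had a log2 ratio of −0.60.

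Relative to Dmrtb1, each of the other 4 genes was higher in Bcas2F/-;Vasa-Cre testes than in control. Dmrt1 over Dmrtb1 went from 7.63 to 10.8, a log2 change of 0.50 with an interval of 0.32 to 0.68. Kit over Dmrtb1 went from 1.32 to 1.80 and Sohlh1 over Dmrtb1 from 1.90 to 2.43, log2 changes of 0.44 and 0.35, and both intervals lay above 0. Sohlh2 over Dmrtb1 went from 0.598 to 1.22, so that the order of these genes was exchanged, a log2 change of 1.03 with an interval of 0.81 to 1.25. Sohlh2 over Dmrt1 changed by 0.54, with an interval of 0.39 to 0.68. A difference between Kit and Dmrt1 was not detectable at this depth, with a log2 change of their quotient of −0.057 and an interval of −0.17 to 0.061, whereas that of Sohlh1 over Dmrt1 was −0.14 with an interval of −0.27 to −0.017. The order of the levels was therefore Dmrt1, Sohlh1, Kit, Dmrtb1 and Sohlh2 in control testes, and the last pair was reversed in Bcas2F/-;Vasa-Cre testes. Poisson intervals of neighbours did not overlap in either library, but they cover counting error only. The order also depends on the gene lengths of the authors' annotation, which for Kit differs from GENCODE M21.

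**Figure D2:**
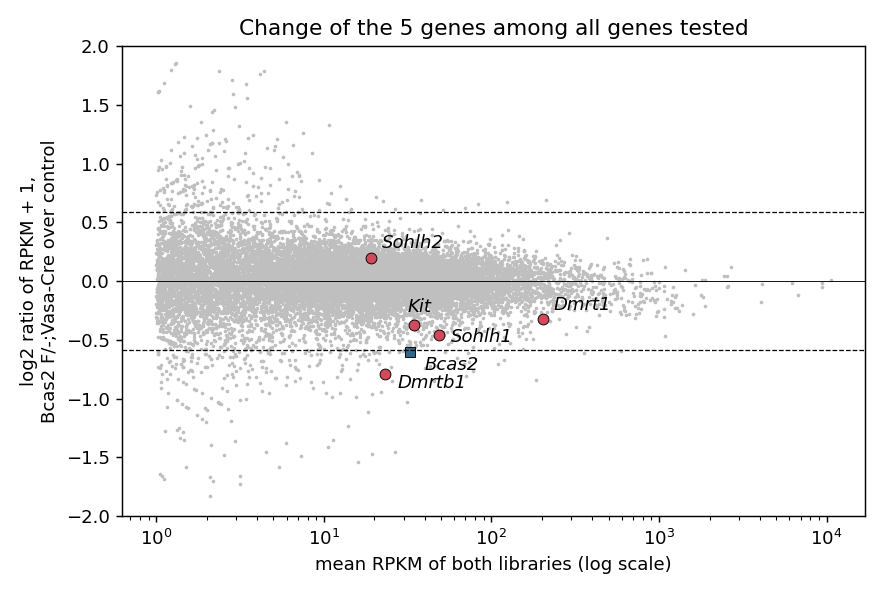
Log2 ratio of RPKM + 1 in Bcas2F/-;Vasa-Cre over control testes against the mean RPKM of both libraries on a log axis, for the genes of mean RPKM 1 or more (grey), the 5 genes (red) and Bcas2 (blue square), with dashed lines at 1.5-fold. Dmrtb1 at −0.79 lies below the lower line with Bcas2 at −0.60, the other 4 genes lie between the lines, and 12 genes lie outside the vertical axis.

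The intervals of counting error are narrow beside the spread of all genes. The interval lay below 0 for 4 of the 5 genes and above 0 for 1. Among genes with a GENCODE M21 match and at least 5 RPKM on average, it lay below 0 for 20.6% and above 0 for 23.2%. The log2 ratios of the 10663 genes at or above 5 RPKM on average had an SD of 0.205, and the middle 95% of them ran from −0.41 to 0.33. Sohlh1 and Dmrtb1 lay below that range, whereas Kit, Dmrt1 and Sohlh2 lay inside it. The log2 ratio of Kit was at percentile 3.38 of these genes, that of Sohlh1 at 1.87, that of Dmrt1 at 4.65, that of Dmrtb1 at 0.356 and that of Sohlh2 at 89.3.

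Most germ cell genes were lower and most Sertoli cell genes higher in Bcas2F/-;Vasa-Cre testes. The 15 pan-germ cell genes summed to 842 RPKM in control and 660 in Bcas2F/-;Vasa-Cre testes, with a median log2 ratio of −0.37, 14 lower and 1 higher. Mov10l1, Tdrd9 and Tdrkh, genes of the piRNA pathway, were past 1.5-fold lower, with log2 ratios of −0.60, −0.60 and −0.59. Dazl, an RNA-binding protein of germ cells with the highest level in the list, was at −0.40, Ddx4, the germ cell helicase also called Mvh, at −0.25, and Asz1, the highest ratio, at 0.053. The 18 Sertoli cell genes summed to 4206 and 4566 RPKM, and of the 16 with a mean RPKM of 1 or more, 14 were higher and 2 lower, with a median of 0.14 and 0 past 1.5-fold. Clu had the highest level of them and a log2 ratio of 0.12, and the ratios ran from −0.097 for Gata1 to 0.43 for Gdnf. Of genes that define Sertoli cells, Sox9 was at 28.5 and 35.1 RPKM and Wt1 at 142 and 153 RPKM. Rhox5, also in the list, was listed at 0 in both libraries. A listed 0 does not by itself show that the RNA was absent. Whether reads of Rhox5 were lost in mapping or counting was not tested. The part of the germ cell share in the values of the 5 genes was not tested.

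Set against single germ cell genes of the same library, the 5 genes differed among themselves. Relative to Ddx4, Kit changed by −0.13 on the log2 scale with an interval of −0.25 to −0.010, Sohlh1 by −0.22 with −0.35 to −0.089, and Dmrt1 by −0.074 with −0.15 to 0.0018. Dmrtb1 changed by −0.57 relative to Ddx4, with an interval of −0.75 to −0.39, and Sohlh2 by 0.46 with an interval of 0.32 to 0.61. Relative to Dazl, Kit changed by 0.025 with an interval of −0.090 to 0.14 and Sohlh1 by −0.062 with −0.19 to 0.062, and both intervals held 0. Dmrtb1 changed by −0.41 and Sohlh2 by 0.62 relative to Dazl, with intervals of −0.59 to −0.24 and 0.48 to 0.76, and Dmrt1 changed by 0.081. Relative to either germ cell gene, Dmrtb1 was thus lower and Sohlh2 higher in Bcas2F/-;Vasa-Cre testes by more than counting error, and the changes of Kit, Sohlh1 and Dmrt1 were at most 0.22 in size.

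Zbtb16, which encodes PLZF of undifferentiated spermatogonia, marks the stage before. Stra8 is induced by retinoic acid at the entry into meiosis. It is also in the list of differentiation genes below, so it does not mark a later stage alone. Zbtb16 was at 15.5 RPKM in control and 11.6 in Bcas2F/-;Vasa-Cre testes (log2 ratio −0.38), and Stra8 was at 87.2 and 56.8 RPKM (log2 ratio −0.61). Relative to Zbtb16, Kit changed by 0.029, Sohlh1 by −0.059 and Dmrt1 by 0.085, and the intervals of all 3 held 0. Zbtb16 is only 1 of the 17 undifferentiated spermatogonia genes tested, of which 9 were lower and 8 higher. The median log2 ratio of that list was −0.034, and quotients over its other genes were not computed. Relative to Stra8, Kit was higher by 0.24, with an interval of 0.092 to 0.38, Dmrt1 by 0.29 and Sohlh2 by 0.83. Sohlh1 relative to Stra8 changed by 0.15 with an interval of −0.0022 to 0.30, which held 0. Dmrtb1 changed by −0.41 relative to Zbtb16 and by −0.20 relative to Stra8, the latter with an interval of −0.40 to −0.0055.

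**Figure D3:**
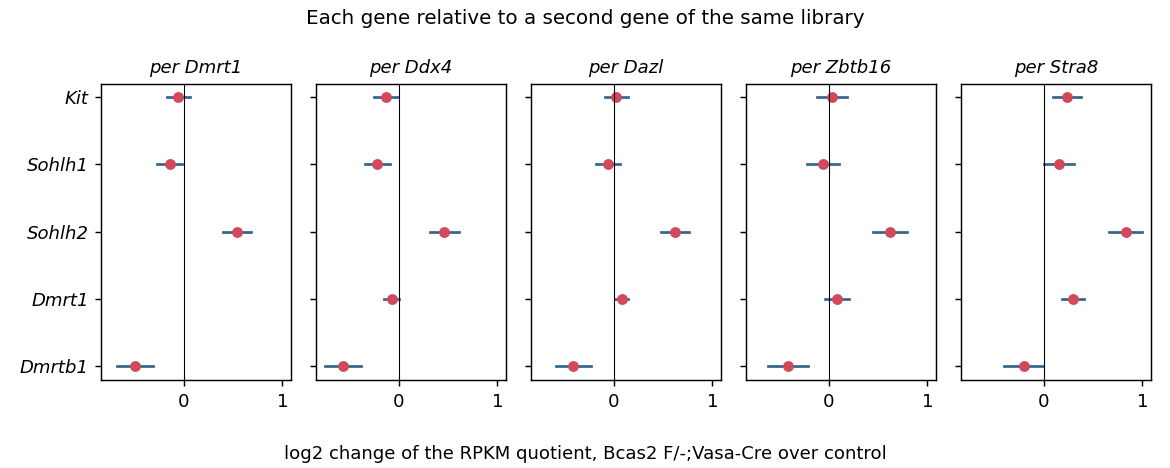
Log2 change, Bcas2F/-;Vasa-Cre over control, of the RPKM of each of the 5 genes divided by that of a second gene of the same library (Dmrt1, Ddx4, Dazl, Zbtb16 or Stra8, 1 panel each), with 95% intervals of counting error as lines. Sohlh2 lies right of 0 and Dmrtb1 left of 0 in every panel, whereas Kit, Sohlh1 and Dmrt1 lie between −0.22 and 0.29.

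Other genes linked to the same step, not all of them limited to it, were read from lists. Of 7 further differentiation genes, all with a mean RPKM of 1 or more, 6 were lower and 1 higher, with a median log2 ratio of −0.48. Of the 7, 3 were past 1.5-fold lower, beside 1.69% of all genes tested. Nanos3, an RNA-binding regulator, was at 15.2 and 7.16 RPKM, a log2 ratio of −0.99, and the homeobox gene Rhox13 was at 16.8 and 8.22 RPKM, a log2 ratio of −0.95. Stra8, the highest in level of this list, is given above, and Ccnd2, a cyclin of differentiating spermatogonia that somatic cells also use, was the 1 higher gene at 0.14. The ratio of Dmrtb1 lay between those of Stra8 and Rhox13. Those of Kit, Sohlh1 and Dmrt1 lay between that of Dnmt3b, a DNA methyltransferase, at −0.48 and that of Rarg at −0.24. The intervals of Sohlh1 and Dnmt3b overlapped, and Sox3 was at −0.17.

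Among 17 undifferentiated spermatogonia genes of mean RPKM 1 or more, 9 were lower and 8 higher, with a median log2 ratio of −0.034, or −0.18 over those of mean RPKM 5 or more. Sall4, a zinc finger factor of germ line progenitors, was past 1.5-fold lower at −0.71, and Lin28a, the highest in level, was at −0.35. Nanos2, a stem cell regulator, had the highest ratio at 0.49 from 1.01 and 1.83 RPKM. It rested on 29 and 51 reads, with an interval of 0.17 to 1.57 without the pseudocount. The 20 meiotic prophase genes had a median of −0.32, 19 lower and 1 higher, with 4 past 1.5-fold lower. These were the cohesin gene Smc1b at −1.12, the synaptonemal complex gene Syce3 at −0.76, the histone methyltransferase gene Prdm9 at −0.76 and Mei1 at −0.72. Syce2, the highest in level, was at −0.40, and Msh5 was the 1 higher gene at 0.27. On the scale of RPKM + 1, the ratio of Dmrtb1 was thus below those of all but Smc1b, and the ratio of Sohlh2 above those of all but Msh5. Without the pseudocount, the interval of Dmrtb1 (−0.997 to −0.65) overlapped those of Syce3 (−1.24 to −0.43), Prdm9 (−1.27 to −0.60) and Mei1 (−1.41 to −0.75). The order among these genes is therefore not settled. Intervals of other genes in the list also overlapped that of Sohlh2 (0.075 to 0.35).

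The other members of the DMRT family were read beside Dmrt1 and Dmrtb1. Of 9, 4 had a mean RPKM of 1 or more, 0 were past 1.5-fold and the median log2 ratio was −0.12. Dmrta1 was at 55.0 and 53.4 RPKM, a log2 ratio of −0.041, and Dmrtc1a was at 19.0 and 14.9 RPKM, with a log2 ratio of −0.33 and −0.56 to −0.14 as its interval. Dmrtc2, also called DMRT7 and used in pachytene spermatocytes, was at 1.86 and 1.98 RPKM. In GENCODE M21, 0 other genes shared exon bases with any of the 5 genes. In a search of the 5 genes' transcripts against all GENCODE M21 transcripts, 0 other genes matched at 90% identity over 100 bases, so no near-identical copy was found that could share their reads.

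**Figure D4:**
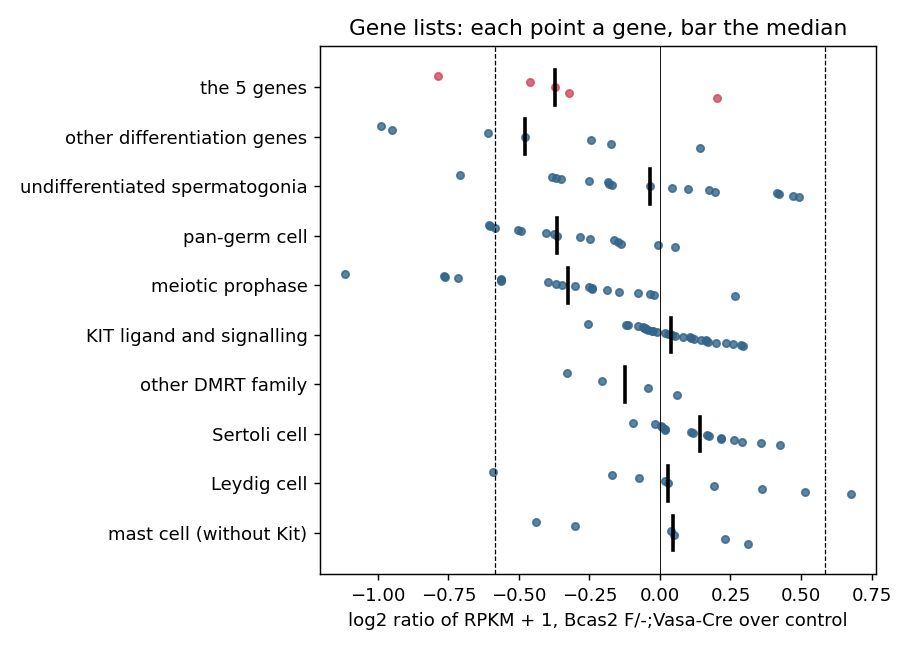
Log2 ratio of RPKM + 1 in Bcas2F/-;Vasa-Cre over control testes for each gene with a mean RPKM of 1 or more (points) in the 5 genes and in 9 lists, with the median of each as a black bar and dashed lines at 1.5-fold. The median of the 5 genes, −0.37, lies beside that of the pan-germ cell list, also −0.37, whereas the Sertoli cell list has its median at 0.14 and the KIT signalling list at 0.038.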

How the data were processed

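RNA from P9 testes was measured in 2 libraries, 1 per genotype. The authors removed adaptor and low-quality reads, aligned paired-end reads with TopHat2 2.0.9 to mm10, as the submitters' processing notes give them, used HTSeq to count reads on genes, and deposited the counts as RPKM. The annotation behind them is not given in the sources used here. Of 39695 entries, 37606 (94.7%) matched GENCODE M21 on GRCm38 by identifier, the source of symbols, positions and lengths. Log2 ratios used RPKM + 1 and genes of mean RPKM 1 or more.

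Reads were recovered from the deposited RPKM values. Genes with a single transcript gave the library sizes (the same size from 293 of 578 such genes in the control and 281 of 555 in the Bcas2F/-;Vasa-Cre library). Of 21201 genes above 0 in both libraries, 53.1% gave whole reads within 0.02 with the rounded mean transcript length, Sohlh1, Sohlh2, Dmrt1 and Dmrtb1 among them. For the others, Kit among them, the smallest whole reads with the right ratio were used, scaled by the whole factor nearest to the annotated length. The procedure was tested on simulated data. The simulated gene lengths lay nearer to the annotated ones than those implied for Kitl, Dazl and Zbtb16. For Dazl the reads imply 2942 bases, beside an annotated mean of 1451. The simulation therefore does not cover such genes.

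Intervals of ratios are Clopper-Pearson, those of levels exact Poisson, and those of quotients between genes the large-sample interval of the odds ratio. Python 3.11.15, numpy 2.4.6, pandas 2.3.3, scipy 1.17.1, matplotlib 3.10.9 and BLAST+ 2.17.0 were used. The genes named were the 5 genes, Bcas2, Kitl, Stra8, Ddx4, Dazl, Zbtb16 and, in each of 15 lists, every gene past 1.5-fold, the one with the highest level and those with the lowest and highest log2 ratio. Others named from the lists (Dnmt3b, Rarg, Sox3, Fcer1a, Sox9, Wt1, Rhox5 and Id2) were chosen after their values were seen. The members and the lists were chosen with earlier results of these data known. The alternatives were other pseudocounts, scalings and filters. With 2 libraries, likeness of pattern between genes was not computed.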

Additional observations from a re-analysis of the deposited data

How the results depend on the processing

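After centring on the median of all genes, with RPKM rescaled to the same sum per library, with pseudocounts of 0.1 and 0.01 and with recovered reads in place of RPKM, the log2 ratios of the 5 genes kept their direction and stayed within counting error, and Dmrtb1 stayed past 1.5-fold, at −0.77 to −0.82. With the median of the pan-germ cell genes set to 0, which adds the same amount to every gene, Kit was at −0.0062, Sohlh1 at −0.095, Sohlh2 at 0.57, Dmrt1 at 0.041, a change of sign, and Dmrtb1 at −0.42, no longer past 1.5-fold. The medians of all 15 lists moved by less than the counting error of their genes (median over each list) under the alternatives run for them, although with a mean RPKM of 5 or more that of the undifferentiated spermatogonia list went from −0.034 to −0.18, that of the Leydig cell list from 0.028 to 0.11 and that of the mast cell list, Kit included, from 0.040 to −0.17. The counts of genes past 1.5-fold moved more. From 251 lower and 233 higher they went to 457 and 454 with a pseudocount of 0.1, to 485 and 491 with 0.01, to 468 and 511 without a filter, to 104 and 46 with a mean RPKM of 5 or more, and to 356 and 434 with rescaled RPKM, and the cause was not tested. No paired analysis was possible because each genotype had 1 library, and for the same reason no library could be left out. The reads limit each ratio to about 0.050 (Dmrt1) to 0.17 (Dmrtb1) on either side on the log2 scale, for counting error only.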

Other observations

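Among 15 germ line transcription factors and partners or inhibitors of basic helix-loop-helix proteins, all with a mean RPKM of 1 or more, 6 were lower and 9 higher, with a median log2 ratio of 0.047. Figla, a basic helix-loop-helix factor known from oocytes, was at 4.56 and 7.36 RPKM, past 1.5-fold higher at 0.59, from 46 and 72 reads. Tcfl5 and Ascl2, further factors of the same protein class, were past 1.5-fold lower at −0.61 and −0.70, and Taf7l, the highest in level, was at −0.34. Id2, an inhibitor of the class, was at 43.2 and 57.7 RPKM, a log2 ratio of 0.41.

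Of 18 retinoic acid pathway genes of mean RPKM 1 or more, 13 were lower and 5 higher, with a median log2 ratio of −0.070. Crabp1, a binding protein of retinoic acid, was past 1.5-fold lower at −0.65, as was Stra8. Aldh1a1, the enzyme with the highest level in the list, was at 0.12 and Cyp26b1, which degrades retinoic acid, at 0.28.

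Markers of other cells in whole testes were read as well. Peritubular myoid cell genes had a median log2 ratio of −0.049 over 7 genes from −0.13 for Acta2 to 0.090 for Cnn1, with Myl9, the highest in level, at −0.018. Endothelial cell genes had a median of 0.036 over 7 genes from −0.22 for Tek to 0.16 for Esam, with Cdh5, the highest in level, at −0.062. Macrophage genes had a median of −0.23 over 7 genes, from −0.43 for Lyz2, the highest in level, to 0.095 for Mrc1. Of 10 erythroid and neutrophil genes, 6 were past 1.5-fold lower. These were Slc4a1 at −3.38, S100a9 at −2.95, S100a8 at −2.64, Ngp at −1.58, Hbb-bt at −1.03 and Camp at −0.79, whereas Hbb-bs, the highest in level, was at 0.11. Whether the blood content of the libraries bears on the 5 genes was not tested.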
